A study of Homo sapiens and Mus musculus with 41 samples.

Results

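The brain metastatic (BrM) and intermediate (Int) derivatives of Lewis lung carcinoma (LLC) were compared across all genes that reached a value of 10 in 2 or more of the 11 LLC libraries. LLC is a transplantable line that arose spontaneously as a non-small cell lung cancer in a C57/B6 mouse. The comparison used 3 BrM and 2 Int libraries out of 41 in the series, and 13494 of the 23337 genes in the LLC table met the rule. The other LLC groups, 3 leptomeningeal (Lep) and 3 parental (Par) libraries, entered the same fit and are given as context.

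All 4 groups carry a stable GFP transgene, and all were profiled as cultured cells: per the labels, derivatives were recovered from mice by rinsing the leptomeningeal space, grown in DMEM with 10% serum until uniformly GFP-positive, and passaged 3 times. That description covers leptomeningeal recovery. How the BrM cells were taken from the brain, how many animals or clones stand behind each group, and any treatment or animal age were not given in the sources used here. Par replicates are technical and the Int replicates a mixture of biological and technical ones. The kind of the BrM replicates is not stated. All 4 groups share 1 estimate of the spread, so p-values measure a spread between libraries that is partly technical. Par pairs had 169 to 316 genes over 2-fold apart, against 528 to 1171 in BrM pairs and 1243 to 1872 in Lep pairs. Because of the technical replicates, the shared spread may be smaller than that between independent cultures, and the p-values too low. For genes that vary widely in Lep, it may instead be larger than the spread within BrM and Int. Polyadenylated RNA was sequenced, and values are normalized counts, that is, reads divided by 1 size factor per library.

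As background, tumour cells that seed the brain parenchyma and those that seed the cerebrospinal fluid meet different surroundings. Parenchymal colonisers cross the blood-brain barrier and grow along vessels among glia, whereas leptomeningeal cells float in or line a fluid poor in protein and nutrients. Complement component C3 and lipocalin-2 (Lcn2) are both secreted proteins that NF-kB signalling induces, C3 as the central protein of the complement cascade and Lcn2 as a carrier of iron-binding siderophores.

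The labelled cell type was set against its markers. None of 8 lung epithelial markers was tested, 7 of them stayed below 10 in all 5 libraries, and Nkx2-1, the lineage factor of lung epithelium, was at 0 in each. The carcinoma markers Epcam and Cdh1 were also below 10, whereas the simple keratin Krt18 stood at 8925, 13967 and 9194 in BrM, against 10219.5 and 8542 in Int, and the mesenchymal filament Vim at 155408, 201744 and 161897 in BrM, against 178583 and 128967 in Int. Sftpb, a surfactant protein gene and the lung marker that passed 10, had 1.27, 0 and 3.29 in BrM, against 9.87 and 10.7 in Int, and Cdh1, the E-cadherin gene, had 2.54, 0 and 0 in BrM, against 1.64 and 1.69 in Int. RNA of Krt18 and Vim was thus abundant in both groups, and that of lung markers and E-cadherin low or at 0.

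BrM libraries held 18029707 to 28453742 reads and Int libraries 67198962 to 67939274. A count of 3 reads, the most that a gene at 0 may have had by counting error alone, was worth 3.81 to 6.55 normalized counts in BrM and 1.64 to 1.69 in Int. BrM replicate 2 stood apart: its correlation of log2 values with the other BrM libraries was 0.983 and 0.984, against 0.994 between BrM replicates 1 and 3, and the Int pair stood at 0.989, with 623 genes over 2-fold apart. Between BrM and Int libraries the correlation ran from 0.906 to 0.939. Across 11425 genes with a length of the human gene of the same name, levels in BrM replicate 2 fell with length (Spearman rho -0.36, against -0.17 and -0.20 in the other BrM libraries and 0.11 and 0.06 in Int). The median log2 fold change, BrM minus Int, was 0.13 in the shortest 20% of genes and -0.41 in the longest 20%. Genes are not independent replicates, and the part of length in single results was not tested beyond a fit corrected for length.

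BrM differed from Int in 3770 genes, 27.9% of those tested (limma, Benjamini-Hochberg adjusted p below 0.05 and a log2 fold change of at least 1 in size). In BrM, 1357 genes were higher (10.1%) and 2413 lower (17.9%), so 36.0% of the calls were higher. Every count of called list members below is to be read beside these shares. Quantile normalization moved this split to 1921 higher and 1903 lower, or 50.2% higher, and shifted the median log2 fold change of all genes by 0.14 (0.09 against -0.05 with the deposited scaling). The groups' libraries did not overlap for 9917 genes, 73.5% of those tested, so a lack of overlap in single genes is given below as description only. Without BrM replicate 2, 1111 genes were higher and 2154 lower. The same counts without Int replicate 1 were 1029 and 1887. Fold changes are on the log2(value + 1) scale, which understates the change of low genes and moves with the added 1. With 10 added in its place, Peg3 stood at -6.00 and not at -8.41, and Sim2 at -4.44 and not at -7.69.

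**Figure D1:**
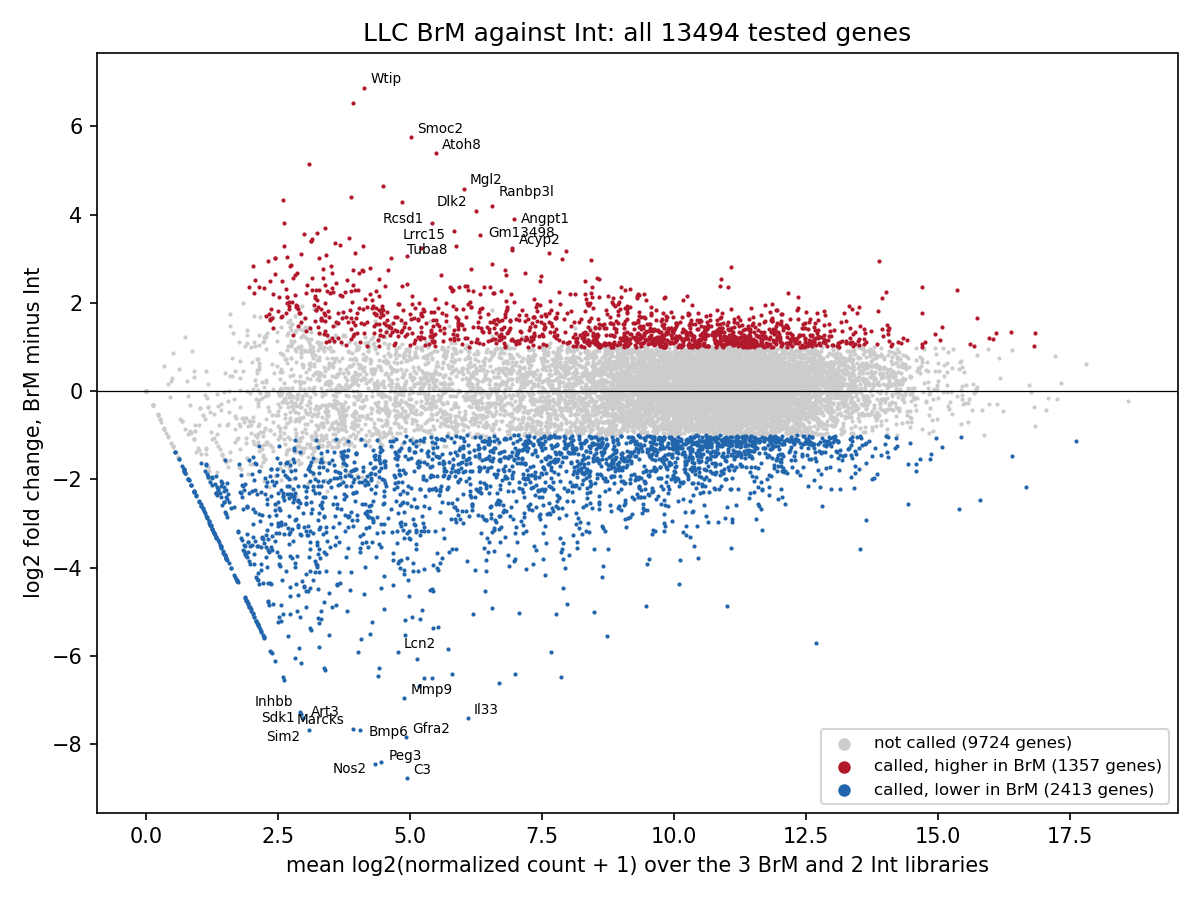
Each point is 1 of the 13494 tested genes, with the mean log2(normalized count + 1) over the 3 BrM and 2 Int libraries on the x axis and the log2 fold change, BrM minus Int, on the y axis. The 1357 genes called higher and 2413 called lower are coloured, and the largest changes among genes with a mean of at least 100 are named: C3 and Nos2 lie lowest and Wtip highest. Genes on the slanted lower left edge were at 0 in all BrM libraries.

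The gains in BrM with the largest fold changes were genes near silent in Int. Wtip, a LIM domain protein of cell junctions related to Ajuba, had 95.1, 139.7 and 120.2 normalized counts in the BrM libraries, against 0 in both Int libraries, at least 71-fold higher at the floor of 3 reads per library (limma adjusted p 1.2e-06). It was also near 0 elsewhere, with 0, 0 and 0 in Lep and 0.711, 1.99 and 2.38 in Par, so the BrM libraries alone of the 11 were high. Mgl2, a C-type lectin known from mouse macrophages and dendritic cells, had 223, 240.2 and 227 normalized counts in the BrM libraries, against 7.67 and 9.57 in the Int libraries (log2 fold change 4.59 ± 0.39, adjusted p 4.7e-06), with 0, 1.28 and 0.703 in Lep and 23.5, 24.6 and 19 in Par. BrM was thus the highest of the 4 groups for both genes, with no overlap.

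Several of the gained genes were also present in Lep. Atoh8, a basic helix-loop-helix transcription factor, had 203, 183 and 211 normalized counts in the BrM libraries, against 2.74 and 5.06 in the Int libraries (log2 fold change 5.39 ± 0.71, adjusted p 7.5e-05), and 257, 743 and 74.5 in Lep. Dlk2, a membrane protein related to Notch ligands, had 208, 282 and 217 normalized counts in the BrM libraries, against 4.93 and 30.9 in the Int libraries, and 321, 419 and 139 in Lep. Smoc2, a secreted matrix-associated protein, had 143, 148 and 184 normalized counts in the BrM libraries, against 1.64 and 2.25 in the Int libraries (log2 fold change 5.76 ± 1.18), and 3.83, 319.5 and 28.1 in Lep. For these 3 genes the Par libraries lay between 0.664 and 18.5, below every BrM library, while the Lep libraries lay on both sides of the BrM range for each. Lrrc15, a leucine-rich repeat membrane protein of fibroblasts and mesenchymal tumours, had 162, 131 and 175 in BrM, against 12.6 and 10.7 in Int, and 125, 378 and 31.6 in Lep. Angpt1, the ligand of the endothelial receptor Tie2, had 454, 273 and 405 normalized counts in the BrM libraries, against 21.9 and 25.9 in the Int libraries, with 162, 188 and 55.5 in Lep and 73.3, 90.3 and 59.4 in Par.

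A further 2 gains were genes with lower levels in Int than in Par. Ranbp3l, a Ran-binding protein, had 344, 277 and 277 in BrM, against 13.2 and 18 in Int, but 301, 311 and 275 in Par, and Rcsd1, a protein that binds the actin capping protein, had 114, 131 and 120.2 in BrM, against 8.77 and 6.75 in Int, but 132, 95.6 and 88 in Par. In both cases BrM and Par overlapped and Int stood below. The remaining 3 of the 12 largest gains were Gm13498 (log2 fold change 3.54 ± 0.73), the alpha tubulin Tuba8 (3.29 ± 0.51) and the acylphosphatase Acyp2 (3.24 ± 0.26). Leaving out 1 Int library moved the log2 fold change of Dlk2 to 2.88 (without Int replicate 1) or 5.30 (without replicate 2), and that of Tuba8 to 4.23 or 2.35.

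Among the losses, 1 set of genes was present in Par and at or near 0 in BrM. Sim2, a developmental transcription factor, was at 0 in all 3 BrM libraries, against 162 and 262 in Int, 478, 463 and 354 in Lep and 186, 165 and 141 in Par, which is at least 41.6-fold below Int (adjusted p 1.5e-08). Peg3, a paternally expressed imprinted zinc finger gene, had 2.54, 0 and 1.65 normalized counts in the BrM libraries, against 876 and 583 in the Int libraries, with 334, 431 and 182 in Lep and 2174, 1776 and 1802 in Par. The 3 BrM reads of Peg3 in all put the ratio of BrM to Int at 0.00221 (exact counting interval 0.000456 to 0.00647). Both genes were high in every library outside BrM. Against Par, the log2 fold change of Peg3 was -9.82 (adjusted p 5.8e-08).

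Art3, of the ADP-ribosyltransferase family, and Sdk1, a synaptic adhesion molecule of the sidekick family, were at 0 in BrM, against 249 and 117 and 226 and 111 in the Int libraries, at least 35.9-fold and 33.1-fold lower. Par held 109, 135 and 137 of Art3 and 262, 261 and 272 of Sdk1, and Lep at most 2.56 and 1.28. Correction for transcript length brought the fitted log2 fold change of Sdk1 to -6.67, against -7.32 without it. Inhbb, the beta B subunit of activins, was at 0 in BrM, against 517 and 45 in Int, at least 55.2-fold lower, and 135, 146 and 133 in Par. The 2 Int libraries differ widely for Inhbb, and its fitted log2 fold change was -5.52 without Int replicate 1 and -9.02 without Int replicate 2. Marcks, a membrane-bound substrate of protein kinase C, had 0, 0 and 4.94 normalized counts in the BrM libraries, against 353 and 374 in the Int libraries, a ratio of 0.00446 (exact counting interval 0.000918 to 0.0131). Bmp6, a bone morphogenetic protein, had 0, 0 and 6.59 normalized counts in the BrM libraries, against 441 and 366 in the Int libraries (-7.68 ± 0.77), and 83.2, 96.9 and 107 in Par. For Marcks and Bmp6 the BrM reads came from replicate 3 alone, and without it the fitted values were -8.51 and -8.65.

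Another set of losses was raised in Int above Par. Nos2, the inducible nitric oxide synthase, had 1.27, 2.18 and 0 normalized counts in the BrM libraries, against 1009.6 and 456 in the Int libraries, with 143, 617 and 341 in Lep and 2.85, 1.99 and 0 in Par, and a BrM to Int ratio of 0.00147 (exact counting interval 0.000177 to 0.0053). Gfra2, a receptor of neurturin, had 3.81, 2.18 and 1.65 normalized counts in the BrM libraries, against 1083 and 577 in the Int libraries (log2 fold change -7.85 ± 0.53, adjusted p 9.3e-07), with 94.6, 97.6 and 90.4 in Par. BrM and Par overlapped for Nos2, whereas for Gfra2 every Par library was above every BrM library.

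Genes of inflammatory signalling were lower in BrM. Of the 31 tested members of the NF-kB target and cytokine list, 25 were called lower and 0 higher, against 17.9% and 10.1% of all tested genes. Their median log2 fold change was -2.59, against -0.05 for all genes. In 3 members 1 group was at 0 in all its libraries, so their fitted values move with the added 1. The interleukin Il33, released by damaged cells, had 15.2, 4.37 and 6.59 normalized counts in the BrM libraries, against 2583 and 864 in the Int libraries (log2 fold change -7.42 ± 0.51, adjusted p 1.1e-06). The 2 groups did not overlap, and Lep at 38.3, 23 and 47.8 and Par at 393, 310.0 and 339 lay between them. Ccl20, a chemokine for cells bearing Ccr6, had 1.27, 2.18 and 4.94 normalized counts in the BrM libraries, against 243 and 384 in the Int libraries (-6.45 ± 0.60, adjusted p 8.5e-06). Its Par libraries, at 2.85, 6.64 and 3.57, overlapped BrM, and its Lep libraries, at 72.9, 340.0 and 158, lay well above.

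The chemokine Ccl5 and the colony-stimulating factor Csf2 were at 0 in all BrM libraries. Int held 30.7 and 51.8 of Ccl5 and 14.3 and 42.8 of Csf2, so BrM was at least 8.09-fold and 5.59-fold lower, while Par held 7.11, 5.31 and 9.51 and 7.11, 5.97 and 4.76. The BrM values were thus below Par as well for both. The fitted log2 fold change of Csf2 was -4.69, with -5.45 without Int replicate 1 and -3.93 without Int replicate 2. Ptgs2, the inducible cyclooxygenase of prostaglandin synthesis, had 4877, 3592 and 4801 normalized counts in the BrM libraries, against 53935 and 50252 in the Int libraries (-3.57 ± 0.48, adjusted p 9.5e-05). Without Int replicate 1 the log2 fold change of Il33 was -6.63 and without replicate 2 -8.21. The list also holds neutrophil-attracting Cxcl chemokines and the NF-kB inhibitors Nfkbia and Tnfaip3, whose fold changes are among the points of the gene list plot.

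C3 itself was nearly absent from BrM, with 0, 6.55 and 1.65 normalized counts in the BrM libraries, against 897 and 1558 in the Int libraries (log2 fold change -8.77 ± 0.74, adjusted p 4.6e-06). Lep held 861, 4236 and 1352 and Par 29.2, 21.9 and 20.2, so BrM was the lowest group and lay below Par without overlap, and against Par the log2 fold change was -3.17 (adjusted p 0.0018). Without BrM replicate 1 the BrM minus Int value was -8.05 and without BrM replicate 2 it was -9.51. Of the 17 tested complement genes, 6 were lower and 0 higher, and the median was -0.22, which turned to 0.29 under quantile normalization. Without BrM replicate 3, 1 was higher. C1s, a serine protease of the C1 complex, had 95.1, 80.8 and 75.7 normalized counts in the BrM libraries, against 1071 and 1031 in the Int libraries (-3.64 ± 0.25), and 2328, 2216 and 2385 in Par. C2, which supplies the catalytic part of a convertase, was also lower (-2.22 ± 0.41). For C1s and C2 the Par libraries lay above all BrM libraries.

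Lcn2 had 6.34, 6.55 and 1.65 normalized counts in the BrM libraries, against 290.5 and 344 in the Int libraries (-5.91 ± 0.50, adjusted p 4.7e-06). Lep held 194, 234 and 261 and Par 0.711, 3.32 and 1.19, so BrM overlapped Par. The log2 fold change against Par was 1.06 and did not pass the threshold (adjusted p 0.063), and that against Lep had an adjusted p of 3.9e-06. Among 20 tested iron handling genes, 6 were lower and 0 higher (2 higher without Int replicate 2), and the median was -0.34. Slc40a1, the iron exporter ferroportin, had 10.1, 4.37 and 19.8 normalized counts in the BrM libraries, against 211 and 154 in the Int libraries (-4.08 ± 0.49), and Cp, the ferroxidase ceruloplasmin, had 252, 229 and 239 normalized counts in the BrM libraries, against 5023 and 2662 in the Int libraries (-3.92 ± 0.42). In Par, Cp stood at 4089.9, 4048 and 4367 and Slc40a1 at 174, 176 and 194, above every BrM library. The metalloreductase Steap4 was at 0 in BrM, against 3.84 and 1.69 in Int. Its Int mean of 2.76 was below the worth of 3 reads in BrM (3.81 to 6.55), so no least fold change can be given for it. With 10 Int reads its call was lost in 4 alternative settings, among them without Int replicate 1 (adjusted p 0.13).

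**Figure D2:**
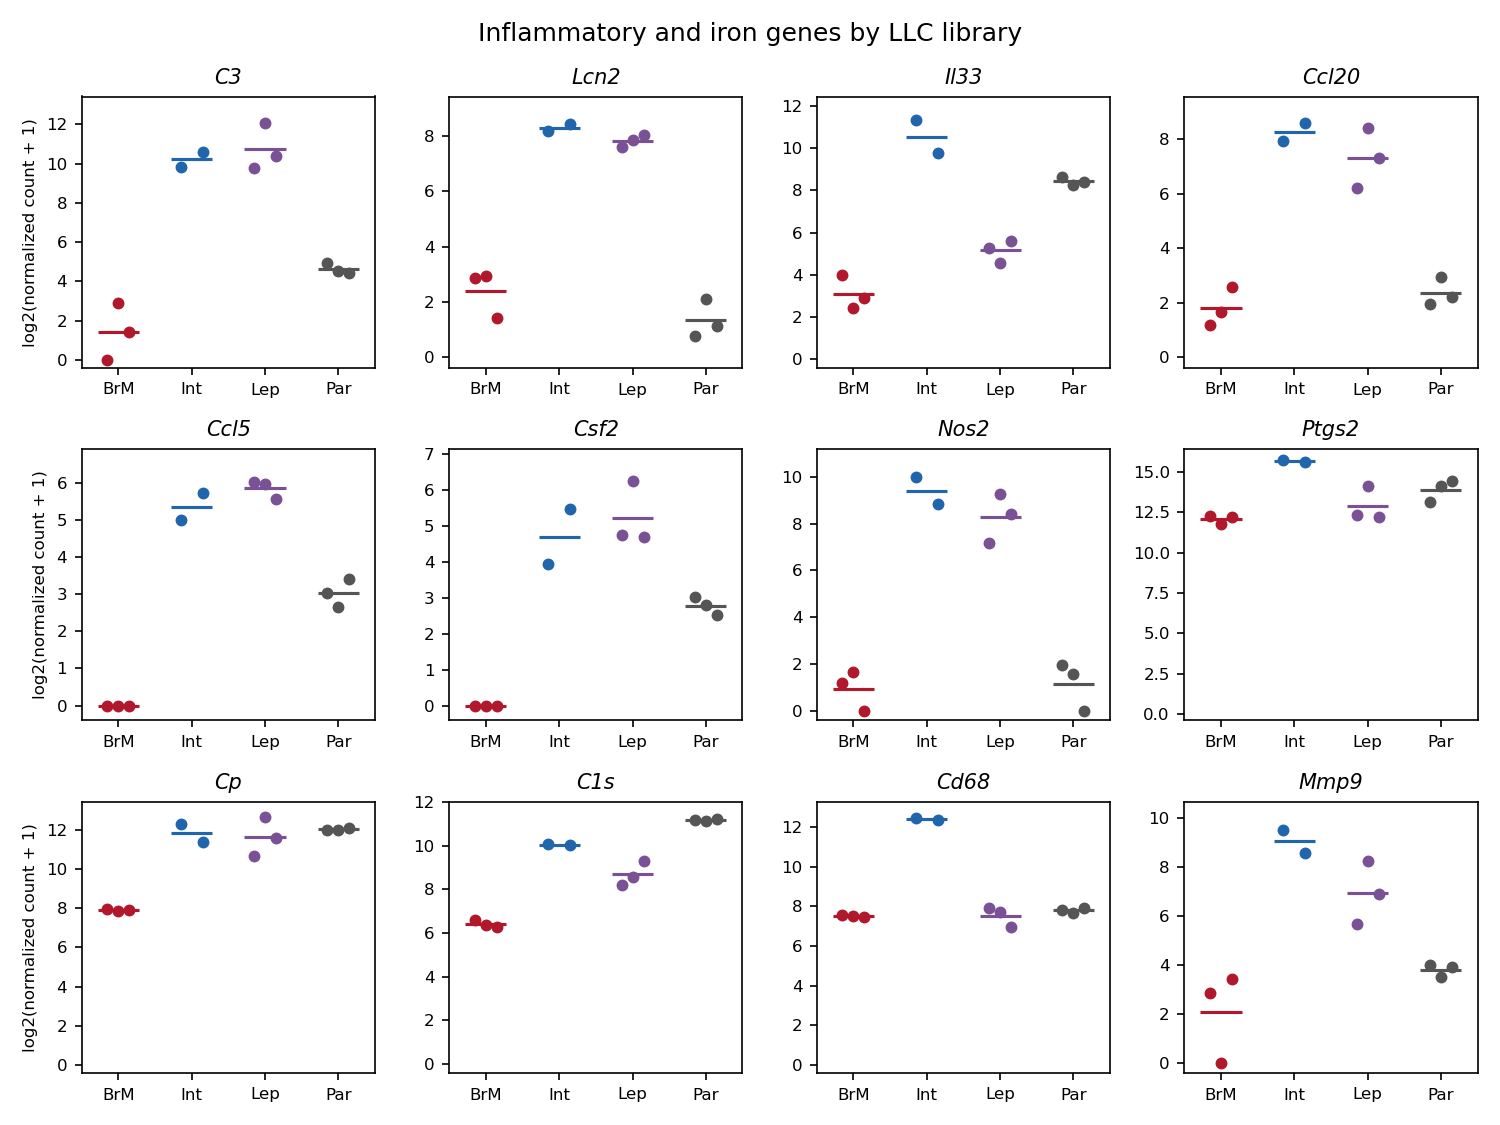
Each panel shows 1 gene, with log2(normalized count + 1) on the y axis and the LLC groups BrM, Int, Lep and Par on the x axis. Points are libraries and bars are group means. BrM lies below Int without overlap in every panel, C3, Lcn2, Ccl20 and Nos2 are high in both Int and Lep, and Cd68 is high in Int alone.

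Markers of host cells that could carry such genes were read beside them. Of 9 macrophage and microglia markers in the table, Ptprc, Aif1, Csf1r, Itgam and P2ry12 stayed below 10 in all 5 libraries, and the list summed to 1210 to 1576 in BrM, against 5667 to 6051 in Int. That difference was carried by Cd68, a lysosomal glycoprotein, at 188, 183 and 173 in BrM, against 5585 and 5159 in Int (-4.88 ± 0.24), while Lep held 238, 208 and 125 and Par 225, 201 and 239. Tmem119, a microglial gene that mesenchymal cells also express, was higher in BrM at 435, 563 and 428 in BrM, against 50.4 and 55.1 in Int (3.14 ± 0.37), with 408, 338 and 215 in Par. Cx3cr1, a fractalkine receptor, had 7.61, 13.1 and 13.2 in BrM, against 19.2 and 67 in Int, a call (adjusted p 0.045) lost in 11 alternative settings. Without Int replicate 2 its log2 fold change was -0.75 and without replicate 1 it was -2.50. All 6 lymphocyte markers were below 10, summing to 0 to 2.18 in BrM and 7.31 to 10.96 in Int.

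Of 23 tested genes of antigen presentation, 15 were lower in BrM and 1 higher, against 17.9% and 10.1% of all tested genes, with a median log2 fold change of -1.99. Psmb8, a catalytic subunit of the immunoproteasome, had 1.27, 2.18 and 6.59 normalized counts in the BrM libraries, against 58.6 and 99.6 in the Int libraries (-4.35 ± 0.71, adjusted p 0.00032), and 59, 40.5 and 41.6 in Par. H2-Q4, a class I molecule of the Q region, had 10.1, 4.37 and 13.2 normalized counts in the BrM libraries, against 113 and 295 in the Int libraries (-4.28 ± 0.47). Its reads may be split with near-identical class I genes, so its own level is uncertain. H2-DMb1, a chain of the chaperone that loads class II, had 2.54, 2.18 and 8.23 normalized counts in the BrM libraries, against 72.4 and 89.5 in the Int libraries (-4.11 ± 0.47), and H2-Ab1, a class II chain, was at 0 in BrM, against 13.2 and 27.6 in Int, at least 3.99-fold lower. For Psmb8, H2-Q4 and H2-DMb1 the Lep and Par libraries lay above every BrM library, whereas H2-Ab1 was at 0 in Lep and at most 2.13 in Par.

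The class I light chain B2m and the peptide transporters Tap1 and Tap2 were among the other genes called lower, and the single gene called higher was Psmb10, another immunoproteasome subunit, which was not called without BrM replicate 2, without Int replicate 1, with thinned reads or with length correction. These genes were picked from the list after their values were seen. Leaving out Int replicate 1 gave 12 of 21 tested genes lower. H2-Q4 had a log2 fold change of -4.97 without Int replicate 1 and -3.60 without replicate 2.

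Interferon-stimulated genes followed the same direction: 17 of 30 tested were lower and 0 higher, with a median of -1.38. For 2 of the 30, 1 group was at 0 in all its libraries. Rsad2, the antiviral protein viperin, was at 0 in BrM, against 87.1 and 41.6 in Int and 14.2, 20.6 and 22.6 in Par, at least 12.6-fold below Int (adjusted p 1.9e-05). Ifih1, the RNA sensor MDA5, had 2.54, 2.18 and 3.29 normalized counts in the BrM libraries, against 41.7 and 25.9 in the Int libraries (-3.22 ± 0.44), and 112, 42.2 and 55.5 in Lep. Xaf1, an interferon-induced regulator of apoptosis, had 1.27, 4.37 and 3.29 in BrM, against 44.4 and 47.3 in Int (-3.65 ± 0.48). For these 3 genes every Int, Lep and Par library was above every BrM library, the closest being Lep replicate 2 with 2.56 of Rsad2. Ifit1, which binds viral RNA, was at 0 in BrM, against 7.67 and 8.44 in Int, at least 1.58-fold lower, and was not called with an added 10 (adjusted p 0.054). Most of the called interferon genes were low: 12 of 17 had a mean under 100 in both groups, and with a filter of 50 in 2 libraries 9 of 20 were lower.

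**Figure D3:**
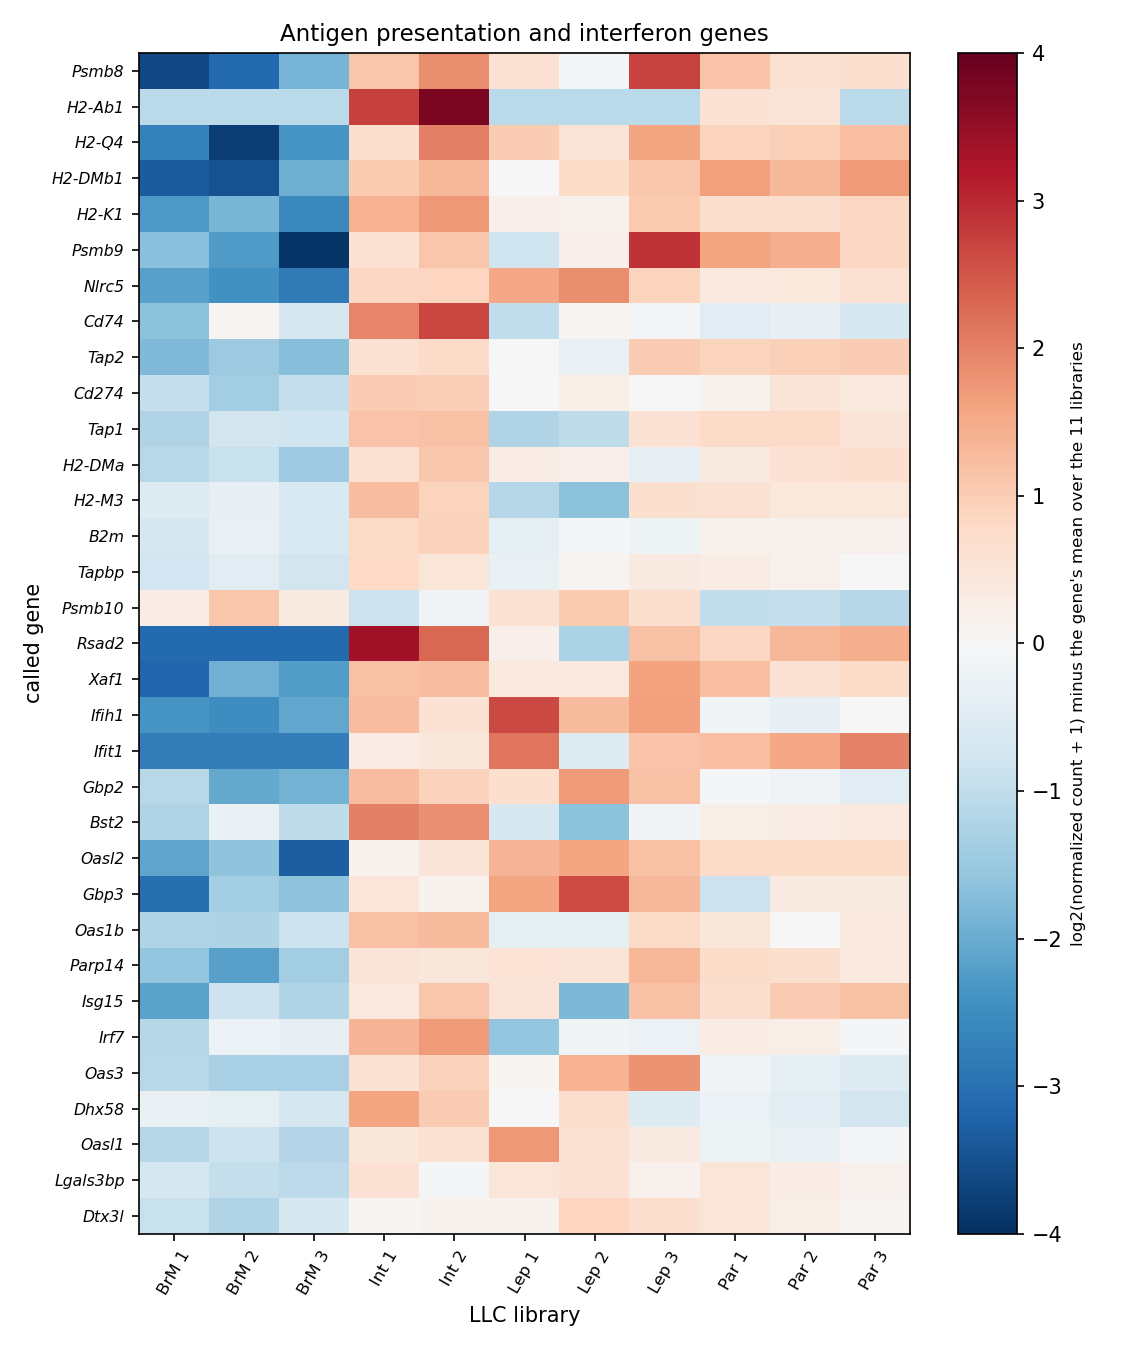
Rows are the 33 called genes of the antigen presentation and interferon lists, columns the 11 LLC libraries, and colour gives log2(normalized count + 1) minus the gene's mean over the libraries. BrM libraries are below the gene means for nearly all rows, with Psmb10 the reverse. The Int, Lep and Par libraries are mostly above them.

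Matrix-degrading enzymes were lower in BrM, with 20 of 30 tested protease and inhibitor genes lower, 0 higher, and a median of -1.91. Mmp9, the gelatinase that cleaves collagen IV, had 6.34, 0 and 9.88 normalized counts in the BrM libraries, against 738 and 385 in the Int libraries (-6.96 ± 0.89, adjusted p 6.3e-05). Lep held 51.1, 305 and 119 and Par 14.9, 10.6 and 14.3, so BrM overlapped neither Int nor Par, although the difference from Par did not pass the threshold (adjusted p 0.086). Mmp10, a stromelysin, had 8.88, 10.9 and 14.8 normalized counts in the BrM libraries, against 455 and 168 in the Int libraries (-4.49 ± 0.67), and 123, 116 and 120.1 in Par. Mmp12, the metalloelastase, was at 0 in BrM, against 88.8 and 15.8 in Int and 34.9, 45.8 and 46.4 in Par, at least 10.3-fold below Int. Mmp2, a second gelatinase, had 0, 0 and 3.29 in BrM, against 73.4 and 7.88 in Int, with a ratio of 0.0263 (exact counting interval 0.00315 to 0.0965).

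The Int values of these proteases rest on replicate 1 more than on replicate 2. Without Int replicate 1 the calls of Mmp12 (adjusted p 0.068) and Mmp2 (adjusted p 0.057) were lost, with fitted log2 fold changes of -4.07 and -2.45, while without Int replicate 2 these were -6.49 and -5.52. Mmp10 stood at -3.78 and -5.21 in the same settings. Without BrM replicate 3 the value of Mmp2 was -4.68 and that of Mmp9 -7.62, and without BrM replicate 2 that of Mmp9 was -5.90.

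Collagens and other matrix genes had 16 of 37 tested members lower and 2 higher, with a median of -0.84. Col8a1, a short-chain collagen of vessel walls and basement membranes, had 635, 430.1 and 535 normalized counts in the BrM libraries, against 16991 and 14123 in the Int libraries (-4.88 ± 0.18, adjusted p 1.5e-08), and 2669, 2449 and 2493 in Par. Loxl2, which cross-links collagen, had 11.4, 6.55 and 11.5 normalized counts in the BrM libraries, against 597 and 303 in the Int libraries (-5.34 ± 0.39), and 371, 323 and 296 in Par. Dcn, the small proteoglycan decorin, had 100.2, 89.5 and 80.7 in BrM, against 1648 and 509.8 in Int (-3.34 ± 0.39), and 1490.2, 1666 and 1947 in Par. For all 3, every library outside BrM was above every BrM library. The laminin chain Lama4 was at 0 in BrM, against 55.4 and 12.9 in Int, at least 6.7-fold lower, and the basement membrane collagen Col4a5 fell by 3.98 ± 0.66 on the log2 scale. The 2 members called higher were Col1a2 and Col7a1, named after their values were seen. Correction for transcript length gave 13 lower and 4 higher. When Int replicate 1 was left out, the log2 fold changes of Dcn, Col4a5 and Lama4 were -2.49, -3.27 and -3.80, and without replicate 2 they were -4.18, -4.69 and -5.82.

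Of 24 mesenchymal genes, 7 were lower and 3 higher, against 17.9% and 10.1% of all tested genes, with a median of -0.46. With Int replicate 1 left out, 3 were lower and 2 higher. Fn1, the matrix protein fibronectin, had 24369, 15698 and 22855 normalized counts in the BrM libraries, against 168292 and 101835 in the Int libraries (-2.67 ± 0.24, adjusted p 6.2e-06), with 23509, 22001 and 28169 in Lep and 166497, 176024 and 209232 in Par. BrM thus overlapped Lep, and Int overlapped neither BrM nor Lep. Correction for transcript length brought the value of Fn1 to -2.07. S100a4, a calcium-binding protein linked to motility, went the other way at 63674, 118739 and 65929 in BrM, against 13819 and 19125 in Int (2.29 ± 0.33), and Fap, a membrane protease of activated fibroblasts, had 1.27, 0 and 0 in BrM, against 99.8 and 23.6 in Int, a ratio of 0.00867 (exact counting interval 0.000219 to 0.0488). The 2 groups did not overlap for either gene.

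Of the 3 markers of a mesenchymal state, Fn1 was called lower and Vim and the N-cadherin gene Cdh2 were not called. Cdh2 went the other way from Fn1, at 803, 589 and 747 in BrM, against 335 and 362 in Int. It was called higher with edgeR, DESeq2, an added 10, or BrM and Int libraries only. The 3 markers summed to 180580 to 218031 in BrM and 231164 to 347210 in Int. Meningeal fibroblast and pericyte markers had 5 of 8 tested members lower and 0 higher, with sums of 1655 to 2048 in BrM and 4242 to 6631 in Int. The other 3, Foxc1, Pdgfrb and Col1a1, had positive log2 fold changes and were not called. Foxc1 stood at 822, 766 and 886 in BrM, against 491 and 560 in Int. Quantile normalization gave 4 lower and 1 higher. Tbx18, a transcription factor of mural cells, was at 0 in BrM, against 17.5 and 78.2 in Int, at least 9.39-fold lower, and 81.8, 108 and 84.4 in Par. Pdgfra, a receptor of platelet-derived growth factor, had 819, 569.8 and 808 in BrM, against 3411 and 2765 in Int (-2.09 ± 0.26) and Crabp2, which carries retinoic acid, 5.07, 15.3 and 4.94 in BrM, against 58.6 and 60.2 in Int (-2.85 ± 0.58). Aldh1a2 and Rgs5 were below 10 in all 5 libraries. The fitted value of Tbx18 was -6.31 without Int replicate 1 and -4.21 without replicate 2. In bulk RNA, fewer cells that express a gene and less RNA per cell cannot be told apart.

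Of 22 epithelial genes, 5 were lower and 2 higher, near the 17.9% and 10.1% of all tested genes. The median of -0.24 turned to 0.20 under quantile normalization, 0.16 under the filter of 50 in 2 libraries and 0.08 with length correction. It stood at -0.12 without BrM replicate 1. Without any 1 of the BrM libraries or Int replicate 2, and with edgeR, DESeq2 or an added 0.5 or 10, 1 was higher. Krt8, the partner of Krt18 in simple epithelia, had 7519, 10289.9 and 7721 normalized counts in the BrM libraries, against 1727 and 1896 in the Int libraries (2.22 ± 0.42, adjusted p 0.00085), and 4289.8, 3835 and 3091 in Par. Krt19 went the opposite way at 78.6, 127 and 69.1 in BrM, against 647 and 587 in Int (-2.79 ± 0.77), with 104, 75.7 and 72.5 in Par, and was not called without Int replicate 1 (adjusted p 0.063). BrM was thus the highest group for Krt8, and Int the highest for Krt19. Krt20, an intestinal-type keratin, was at 0 in BrM, against 20.3 and 17.4 in Int, at least 3.7-fold lower. Grhl1, an epithelial transcription factor, had 0, 2.18 and 0 in BrM, against 4.93 and 9 in Int, a ratio of 0.0777 (exact counting interval 0.00189 to 0.475), and was not called without Int replicate 2 (adjusted p 0.093) or in 2 other settings. Either Int library left out gave 2 lower members. The 5 carcinoma markers summed to 16525 to 24383 in BrM and 11028 to 12595 in Int, and 1 of 3 tested was higher, Krt8, and 1 lower, Krt19, a call lost without Int replicate 1.

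Of 37 adhesion genes, 17 were lower, 0 higher and 20 not called, against 17.9% lower and 10.1% higher among all tested genes, with a median of -1.07. Quantile normalization gave 15 lower and 2 higher. Without Int replicate 2, or with length correction, thinned reads or a replicate block, 1 was higher. Pvr, the poliovirus receptor that ligates lymphocyte receptors, had 1352, 1264 and 1414 normalized counts in the BrM libraries, against 11083 and 9125 in the Int libraries (-2.90 ± 0.19, adjusted p 6.8e-07), and Cdh13, a lipid-anchored cadherin, 302, 183 and 318 in BrM, against 1934 and 1823 in Int (-2.85 ± 0.23). Itga2, the collagen-binding integrin subunit, had 11.4, 0 and 6.59 in BrM, against 254 and 115 in Int (-5.24 ± 0.89, or -4.64 corrected for transcript length), with 20.6, 11.9 and 13.1 in Par. For Pvr and Cdh13 the Par libraries lay between Int and BrM. Cd24a, a mucin-like glycoprotein, had 0, 0 and 6.59 in BrM, against 12.6 and 15.8 in Int (-2.94 ± 0.82), and was not called without Int replicate 2 (adjusted p 0.058) or with an added 10. Itga2 stood at -5.96 without BrM replicate 1 and -4.15 without BrM replicate 2, and Cd24a at -3.92 without BrM replicate 3.

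The list of genes reported for brain metastatic derivatives had 16 of 28 tested members lower and 2 higher in BrM, with a median of -1.58. For 2 of the 28, 1 group was at 0 in all its libraries. The list came from work on brain-seeking derivatives of other lines and may overlap earlier work on cells of this kind, so it is not independent evidence of a direction. Its lower members with the largest changes were Mmp9 and Lama4, given above, Bmp2, a bone morphogenetic protein, with 0, 0 and 1.65 in BrM, against 60.8 and 36 in Int, a ratio of 0.0111 (exact counting interval 0.000279 to 0.0627), and Cryab, a small heat shock protein, with 7.61, 15.3 and 4.94 normalized counts in the BrM libraries, against 265 and 325 in the Int libraries (-4.97 ± 0.78, adjusted p 0.00024). In Par, Bmp2 stood at 152, 129 and 117 and Cryab at 43.4, 51.1 and 34.5, above every BrM library. The 2 members called higher were the lipase inhibitor Angptl4, chosen after its values were seen, and Hoxb9.

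Hypoxia and glycolysis genes were lower in BrM in 19 of 34 cases and higher in 0 (2 without BrM replicate 1, and 1 without BrM replicate 3 or Int replicate 2), with a median of -1.07. Car9, a carbonic anhydrase and HIF target, had 71, 45.8 and 60.9 normalized counts in the BrM libraries, against 1466 and 773 in the Int libraries (-4.17 ± 0.37, adjusted p 6e-06). Adm, the vasodilator adrenomedullin, had 370.4, 399.5 and 370.4 normalized counts in the BrM libraries, against 5397 and 5395 in the Int libraries (-3.82 ± 0.38). Ero1l, an oxidase of disulphide formation, had 6054, 4797 and 6098 in BrM, against 63249.7 and 28886 in Int (-2.93 ± 0.32). For Car9, Lep at 49.8, 32 and 74.5 and Par at 99.6, 83 and 72.5 lay at or near the BrM level, with Int alone high, whereas for Adm the Par libraries, at 1834, 1452 and 1314, lay between the groups. The glycolytic enzyme Aldoc stood at 20.3, 45.8 and 19.8 in BrM, against 319.5 and 131 in Int (-2.91 ± 0.51), with -2.27 without Int replicate 1 and -3.55 without Int replicate 2.

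Stress genes were among those with wide separation. Gdf15, a stress-induced hormone, had 50.7, 63.3 and 44.4 normalized counts in the BrM libraries, against 1782 and 1771 in the Int libraries (-5.06 ± 0.60, adjusted p 3.6e-05), with 34.5, 60.1 and 244 in Lep and 193, 362 and 354 in Par. Ddit3, the transcription factor CHOP of the integrated stress response, had 842, 1397 and 769 normalized counts in the BrM libraries, against 9435 and 6038 in the Int libraries (-2.96 ± 0.41, adjusted p 0.0001). Fgf21, a hormone induced by amino acid shortage, had 8.88, 8.73 and 18.1 in BrM, against 342 and 232 in Int (-4.53 ± 0.88), with 2.56, 0 and 19 in Lep and 242, 327 and 455 in Par. For Gdf15 and Ddit3 the Int libraries were above every Par library, and for Fgf21 Int and Par overlapped. Vldlr, a lipoprotein receptor, had 181, 144 and 186 in BrM, against 1814 and 1194 in Int (-3.11 ± 0.29), and 1977, 2253 and 2996 in Par. Of the 35 tested genes of amino acid and endoplasmic reticulum stress, 13 were lower and 1 higher (0 without BrM replicate 2), and the median was -0.78. The gene called higher was Phgdh, the first enzyme of serine synthesis, named after its value was seen.

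Among p53 target genes, 14 of 28 were lower and 0 higher (1 without Int replicate 1), with a median of -1.24. Plk2, a polo-like kinase, had 859.9, 759.8 and 807 normalized counts in the BrM libraries, against 8069.8 and 11065 in the Int libraries (-3.55 ± 0.32, adjusted p 7.3e-06), and 854, 945 and 964 in Par, so Int stood above both. Gadd45a, a growth arrest gene, had 727, 932 and 759 normalized counts in the BrM libraries, against 6665 and 5847 in the Int libraries (-2.96 ± 0.47), with 4893, 6213 and 6656 in Par, so that here BrM stood below both. The autophagy-linked Trp53inp1 (-3.30 ± 0.40) and the death-promoting Pmaip1, or Noxa (-2.88 ± 0.61), were lower as well. Their BrM and Int libraries did not overlap. In drug and redox defence, 13 of 48 genes were lower and 4 higher, against 17.9% and 10.1% of all tested genes, with a median of -0.61. The glutathione transferase Gstt1 had 10.1, 4.37 and 9.88 in BrM, against 204 and 228 in Int (-4.65 ± 0.42), and the cystine transporter Slc7a11 1721, 1183 and 1668 in BrM, against 11933 and 7069 in Int (-2.61 ± 0.38, or -1.93 corrected for transcript length). Mgst3, a microsomal glutathione enzyme, was higher at 4083, 6401 and 4065 in BrM, against 655 and 689 in Int (2.82 ± 0.24), above all Lep and Par libraries. Akr1c14, an aldo-keto reductase, had 0, 0 and 1.65 in BrM, against 41.7 and 17.4 in Int, a ratio of 0.0182 (exact counting interval 0.000455 to 0.103), with fitted values of -3.74 without Int replicate 1 and -4.95 without replicate 2.

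Cell cycle and DNA replication genes were the functional list with most genes higher in BrM: 15 of 38 were higher and 2 lower, against 10.1% and 17.9% of all tested genes, with a median of 0.80. Tyms, thymidylate synthase, had 3303, 4279 and 3378 normalized counts in the BrM libraries, against 502 and 947 in the Int libraries (2.39 ± 0.23, adjusted p 1.1e-05). Rrm2, a subunit of ribonucleotide reductase, had 17296, 17438 and 17034 normalized counts in the BrM libraries, against 3310.0 and 6250.4 in the Int libraries (1.92 ± 0.24), and Ccnb1, the mitotic cyclin B1, had 5616, 6102 and 5659.9 normalized counts in the BrM libraries, against 1320.4 and 1733 in the Int libraries (1.94 ± 0.14). For these 3 genes Par also lay below BrM without overlap, at 1416, 1273 and 1055 for Tyms, 5806, 5132 and 4267 for Rrm2 and 2769, 2569 and 2633 for Ccnb1. Lep held 3387, 2892 and 2974 of Tyms, overlapping BrM. It held 12129, 15699 and 10717 of Rrm2 and 4832, 4655 and 3801 of Ccnb1, below BrM. The list's median log2 level was 12.78, 12.76 and 12.79 in BrM, and 12.8, 12.72 and 12.79 in Lep. High levels of the list were thus not particular to BrM. The G1 kinase Cdk6 went the other way, with 564, 310.0 and 403 normalized counts in the BrM libraries, against 1993 and 1978 in the Int libraries (-2.26 ± 0.21), and 1745, 2133 and 1837 in Lep. The other lower member was Myc, named after its value was seen.

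**Figure D4:**
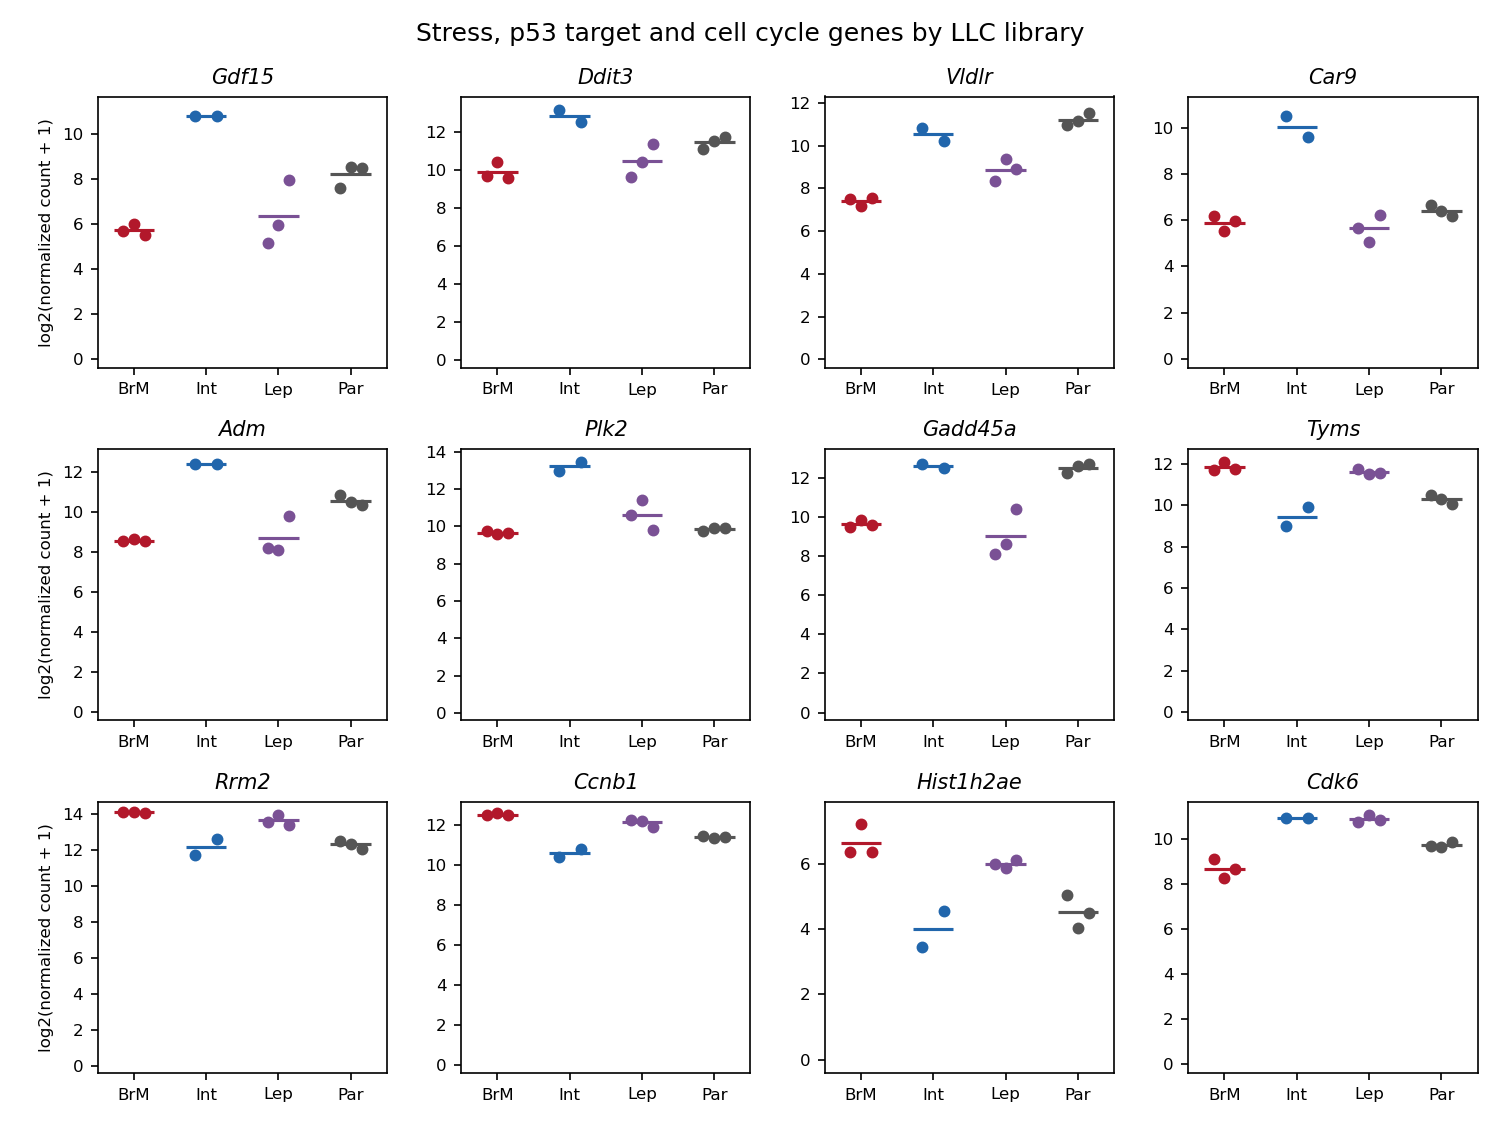
Each panel shows 1 gene, with log2(normalized count + 1) on the y axis and the LLC groups on the x axis. Points are libraries and bars are group means. BrM lies below Int for the stress, hypoxia and p53 target genes and for Cdk6, and above Int for Tyms, Rrm2, Ccnb1 and the histone gene Hist1h2ae.

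Transcripts chosen as signs of RNA quality moved with the groups too. Of 10 tested mitochondrial, histone and long non-coding transcripts, 6 were higher and 1 lower, with a median of 1.21. The filter of 50 in 2 libraries left 7, with 3 higher and a median of 0.02. All 6 were replication-dependent histone genes, whose RNA largely lacks a poly(A) tail. Hist1h2ae had 81.2, 146 and 80.7 normalized counts in the BrM libraries, against 9.87 and 22.5 in the Int libraries (2.64 ± 0.42), Hist1h3c 33, 67.7 and 32.9 in BrM, against 2.19 and 5.06 in Int (3.29 ± 0.57) and Hist1h4d 38.1, 58.9 and 19.8 in BrM, against 2.19 and 8.44 in Int (2.73 ± 0.65). In all 3, BrM replicate 2 was the highest of the BrM libraries and the groups did not overlap. Reads of histone genes may be shared among near-identical copies. Without Int replicate 1, 3 of the 10 were higher, and Hist1h4d was not called (log2 fold change 1.95, adjusted p 0.066, against 3.51 without Int replicate 2). Malat1, a nuclear long non-coding RNA, was lower at 12518, 4720.3 and 9234 in BrM, against 33130.5 and 31002 in Int (-1.97 ± 0.34), with BrM replicate 2 the lowest. Histone RNA is also made in S phase, and the share of the cell cycle difference that goes with RNA quality or poly(A) selection was not tested.

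Ligands and receptors of growth factor signalling were lower in 22 of 47 cases and higher in 1 (0 without Int replicate 2), with a median of -1.05. Hbegf, a ligand of the EGF receptor, had 682, 736 and 714 normalized counts in the BrM libraries, against 5043 and 5150.3 in the Int libraries (-2.84 ± 0.22, adjusted p 2.2e-06), and Btc, a second such ligand, 100.2, 91.7 and 112 in BrM, against 977 and 567 in Int (-2.87 ± 0.25). Egr1, an immediate early gene downstream of MAPK signalling, had 134, 100.4 and 97.1 in BrM, against 1694 and 822 in Int (-3.42 ± 0.44), and 936, 1364 and 1957 in Par. Pdgfb had 1.27, 0 and 0 in BrM, against 19.2 and 35.4 in Int, a ratio of 0.0198 (exact counting interval 0.000497 to 0.113). None of these overlapped between BrM and Int. The gene called higher was Egf, named after its value was seen.

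TGF-beta and YAP target genes had 13 of 29 lower and 2 higher (10 and 1 without Int replicate 1), with a median of -0.79. Cyr61, a matricellular YAP target, had 2045, 2251 and 2176 normalized counts in the BrM libraries, against 9304 and 17609 in the Int libraries (-2.57 ± 0.21), and 2082, 1927 and 1776 in Par, and the Lep libraries, at 3819, 4753 and 3807, lay between BrM and Int. Inhba, the activin A subunit, had 3.81, 0 and 1.65 in BrM, against 63 and 38.3 in Int (-4.43 ± 0.63, or -3.81 without BrM replicate 2), with 56.9, 67.1 and 89.2 in Par. In the Wnt list, 16 of 36 were lower and 4 higher, with a median of -0.80, and quantile normalization gave 13 lower and 7 higher. Lef1, a transcription factor of canonical Wnt signalling, had 11.4, 13.1 and 18.1 normalized counts in the BrM libraries, against 224 and 257 in the Int libraries (-4.01 ± 0.40), and the receptor Fzd4 35.5, 21.8 and 51 in BrM, against 193 and 222 in Int (-2.57 ± 0.38). The ligands Wnt6 and Wnt10a had BrM to Int ratios of 0.0294 (exact counting interval 0.000734 to 0.17) and 0.058 (exact counting interval 0.00688 to 0.218), and without BrM replicate 3 the fitted value of Wnt10a was -4.21.

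Of 16 tested genes of the Notch pathway, 6 were lower, 2 higher and 8 not called, with a median of -0.71, and leaving out BrM replicate 2 or either Int library gave 1 higher. The ligand Dll1 had 45.7, 48 and 47.7 normalized counts in the BrM libraries, against 709.8 and 864 in the Int libraries (-4.03 ± 0.64, adjusted p 0.00028), the receptor Notch3 25.4, 8.73 and 18.1 in BrM, against 298 and 182 in Int (-3.78 ± 0.59) and the ligand Jag1 169, 120.1 and 165 in BrM, against 407 and 681 in Int (-1.81 ± 0.29). The 2 higher members were Dlk2, given above, and the target Hes1, named after its value was seen. For Dll1 and Notch3 the Par libraries lay between Int and BrM, whereas for Jag1, at 117, 139 and 207, Par overlapped BrM.

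Prostaglandin and eicosanoid genes had 7 of 19 lower and 1 higher (0 without BrM replicate 2 or Int replicate 2), with a median of 0.06 but a mean of -0.80. The median turned negative in 9 alternative settings, to -0.51 at the lowest, without Int replicate 2. Besides Ptgs2, these were led by Ptgir, the prostacyclin receptor, at 7.61, 2.18 and 1.65 in BrM, against 199 and 44.5 in Int (-4.51 ± 0.66, or -3.45 without Int replicate 1 and -5.58 without Int replicate 2), with Alox5ap, needed for leukotriene synthesis (-2.68 ± 0.46), and Ltc4s, leukotriene C4 synthase (-2.58 ± 0.37). Ltc4s stood at 36.8, 67.7 and 56 in BrM, against 428 and 233 in Int, with 57.6, 62.4 and 53.5 in Par, so Int was the highest group. Cholesterol and fatty acid synthesis was the list with fewest calls among those with at least 20 tested genes: 1 of 29 was higher, the mevalonate kinase Mvk (1.22 ± 0.25), and 0 lower, with a median of -0.01 (2 higher and 1 lower without Int replicate 2). Its median lay between -0.06 and 0.05 across the alternatives.

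**Figure D5:**
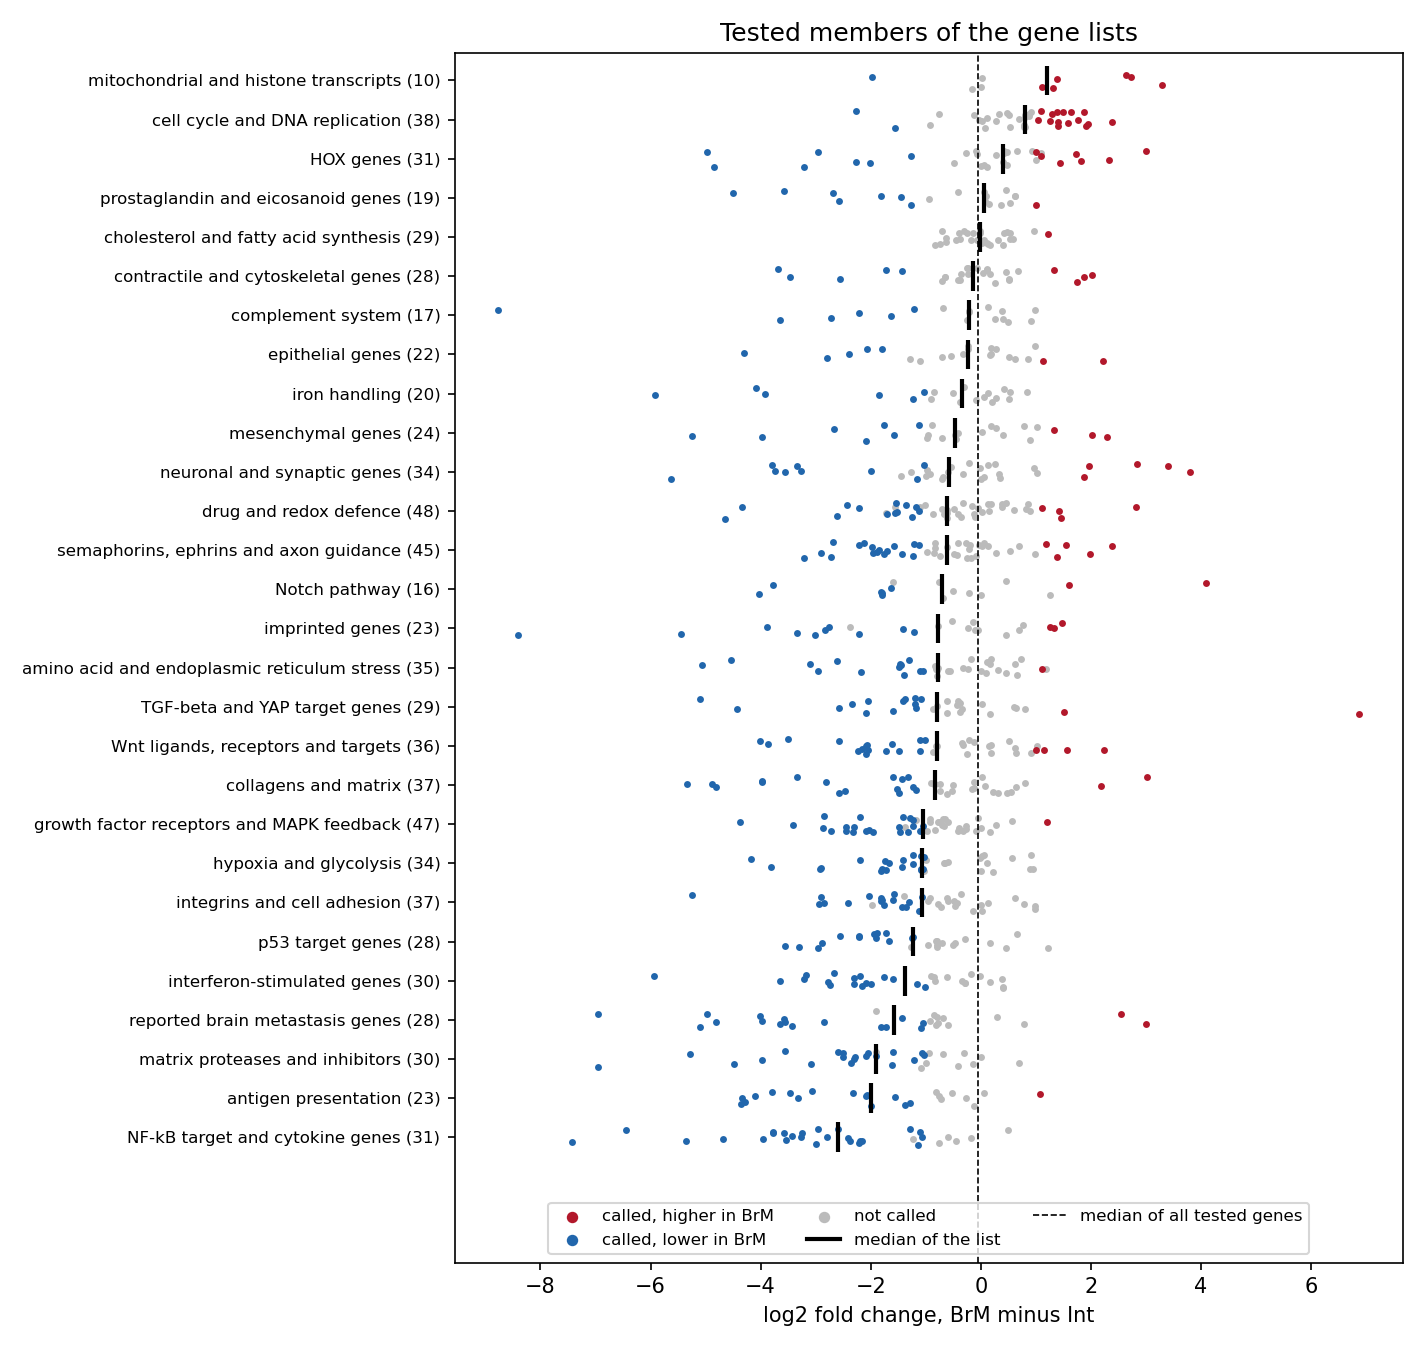
Each point is a tested member of a gene list, with its log2 fold change, BrM minus Int, on the x axis and the list on the y axis, the number tested in brackets. Black bars are list medians and the dashed line is the median of all genes, -0.05. Among the functional lists plotted, NF-kB and cytokine genes have the lowest median, -2.59, and those with medians above 0.5 are cell cycle, at 0.80, and mitochondrial and histone transcripts, at 1.21 (0.02 under the filter of 50 in 2 libraries).

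HOX genes, which record body position, were called in both directions. Of 31 tested, 7 were higher and 7 lower, with a median of 0.40 and a mean of -0.12. The lower genes, listed after their values were seen, were 6 of the Hoxc cluster and Hoxa13. Hoxc6 had 1.27, 2.18 and 3.29 normalized counts in the BrM libraries, against 58.1 and 137 in the Int libraries (-4.85 ± 0.38, adjusted p 2.6e-06), and 144, 115 and 118 in Par. Hoxc4 and Hoxc8 were at 0 in BrM, against 16.4 and 55.7 and 4.93 and 13.5 in the Int libraries, at least 7.08-fold and 1.81-fold lower. Hoxb9 was higher at 542, 498 and 576 normalized counts in the BrM libraries, against 58.1 and 76 in the Int libraries (3.00 ± 0.27), with 0 in all 3 Lep libraries and 139, 169 and 206 in Par. Every BrM library was thus above every other LLC library for Hoxb9 and every Int library above every BrM library for the 3 Hoxc genes. The number called lower was 2 with an added 10, 4 under quantile normalization and 3 under the stricter filter, and without Int replicate 2 there were 4 higher and 5 lower, with a median of 0.12. Hoxc8 was not called with an added 10 or without Int replicate 2 (log2 fold change -2.57, adjusted p 0.07, against -3.86 without Int replicate 1). Without Int replicate 1 the fitted values were -5.83 for Hoxc4 and -5.46 for Hoxc6, and without Int replicate 2 they were -4.12 and -4.23.

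Imprinted genes had 10 of 23 lower and 3 higher (9 and 1 without Int replicate 2), with a median of -0.77 and a mean of -1.42. Besides Peg3 and Dcn these included H19, a maternally expressed non-coding RNA, which was at 0 in all BrM and Lep libraries, against 162 and 10.7 in Int and 270.3, 244 and 295 in Par, at least 17-fold below Int. The 2 Int libraries differ widely here, and the fitted value was -3.55 without Int replicate 1 and -7.35 without replicate 2. Phlda2, which limits placental growth, had 6.34, 10.9 and 8.23 in BrM, against 98.7 and 191 in Int (-3.89 ± 0.43), and 16.4, 17.3 and 29.7 in Par. Usp29, the neighbour of Peg3 in the same imprinted domain, was also called lower, and was named after its value was seen. Of 10 X inactivation and Y chromosome genes, only Xist was tested, at 19859.7, 7572 and 18175 in BrM, against 26068 and 32452 in Int (-1.06 ± 0.35, adjusted p 0.022), with BrM replicate 2 the lowest. Its call was lost in 7 settings, among them without BrM replicate 2 (log2 fold change -0.61), without Int replicate 1 (adjusted p 0.061) and without Int replicate 2 (adjusted p 0.13).

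Genes of neurons and axon guidance were lower and higher in turn. In the neuronal and synaptic list, 9 of 34 were lower and 5 higher, against 17.9% and 10.1% of all tested genes. The median of -0.57 turned to 0.11 under quantile normalization. Dlg2, a synaptic scaffold, had 3.81, 0 and 8.23 in BrM, against 370.0 and 81 in Int (-5.62 ± 0.79), and 448, 501 and 639.6 in Par. Syt1, the calcium sensor of vesicle release, was at 0 in BrM, against 20.8 and 7.88 in Int, at least 2.82-fold lower, and Kcnma1, a potassium channel, had a ratio of 0.0389 (exact counting interval 0.00464 to 0.144). Ncald, a calcium-binding protein, was higher at 29.2, 13.1 and 11.5 in BrM, against 0.548 and 0 in Int, a ratio of 69.9 (exact counting interval 11.8 to 2.84e+03). The stricter filter left 19 genes with 6 lower and 1 higher. With 1 library left out, the fitted values ran from -4.53 (without Int replicate 1) to -6.71 (without Int replicate 2) for Dlg2, with -4.71 and -6.31 without BrM replicate 2 or 3, and from -3.15 to -4.45 for Syt1, again without Int replicate 1 and Int replicate 2.

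Semaphorins, ephrins and axon guidance genes had 17 of 45 lower and 5 higher, with a median of -0.61. The repulsive cue Slit2 had 73.6, 28.4 and 77.4 in BrM, against 462 and 369.7 in Int (-2.90 ± 0.50) and Sema6c, a transmembrane semaphorin, 20.3, 39.3 and 41.2 in BrM, against 344 and 274 in Int (-3.22 ± 0.35). Slit1 (-2.73 ± 0.55) and the ephrin Efna3 (-2.69 ± 0.48) were lower too, Slit1 with -1.85 without Int replicate 1 and -3.61 without Int replicate 2. Int was above Par for Slit2, at 81.1, 92.9 and 85.6 in Par, and BrM below Par for Sema6c, at 228, 179 and 176. Markers of neural and glial cells had 1 of 5 tested lower, Syt1, and 1 higher, the glutamate transporter Slc1a3 (1.67 ± 0.37), with sums of 1098 to 1357 in BrM and 1457 to 1626 in Int. Gfap, Aqp4, Olig2 and Rbfox3 were below 10. Choroid plexus and ependyma markers summed to 44.4 to 52.4 in BrM and 531 to 742 in Int through the water channel Aqp1, at 43.1, 48 and 37.9 in BrM, against 728 and 514 in Int (-3.81 ± 0.39). Ttr, Folr1, Otx2 and Foxj1 were below 10, and 1 of 2 tested was called lower (2 without BrM replicate 1).

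Contractile genes showed no common direction, with 5 of 28 lower and 4 higher and a median of -0.14. These counts were near the 17.9% lower and 10.1% higher among all tested genes. Acta2, smooth muscle actin, was higher at 665, 1019.6 and 744 in BrM, against 125 and 304 in Int (2.02 ± 0.44), with 39.8, 21.9 and 20.2 in Par, and its value was 1.38 without Int replicate 1 and 2.66 without replicate 2. Acta1, the skeletal actin, went the other way at 3.81, 2.18 and 3.29 in BrM, against 19.7 and 25.9 in Int (-2.55 ± 0.56), as did the muscle filament Des at 17.8, 19.6 and 4.94 in BrM, against 198 and 105 in Int (-3.46 ± 0.53). The Cdc42 effector Cdc42ep3 had 6.34, 0 and 6.59 in BrM, against 43.8 and 52.9 in Int (-3.69 ± 0.82, or -2.72 without BrM replicate 2). With an added 10, 2 members were higher, and correction for transcript length turned the median to 0.15. Endothelial markers had 2 of 4 tested lower: Flt1, a VEGF receptor, at 700.1, 410.5 and 716 in BrM, against 2298 and 2214 in Int (-1.93 ± 0.22), and Vwf, von Willebrand factor, at 1.27, 2.18 and 3.29 in BrM, against 18.6 and 12.4 in Int (-2.37 ± 0.44, or -1.72 corrected for transcript length). The other 2 tested markers, Esam and Pecam1, had positive log2 fold changes and were not called. Esam stood at 8.88, 19.6 and 11.5 in BrM, against 9.87 and 9 in Int. Quantile normalization gave 2 lower and 1 higher. Pecam1, Cdh5, Tek and Cldn5 were below 10 in all 5 libraries. The 8 markers summed to 443 to 742 in BrM and 2254 to 2348 in Int, and most of each sum was Flt1.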

How the data were processed

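Polyadenylated RNA of cultured LLC derivatives was measured, per the labels' protocols, with 500 ng input per library, a TruSeq v2 kit that does not mark strand, and 50 base paired-end reads on a HiSeq instrument. The authors deposited a signal table of normalized counts per gene symbol, with no coordinates. The mouse build GRCm38 (mm10) and the tools HTSeq 0.5.4, FastQC 0.11.3 and DESeq2 appear in the submitters' processing notes, with no roles. An aligner was not given in the sources used here. Dividing the deposited values by 1 step per library gave whole numbers (100% within a tolerance of 0.01), so read counts were recovered for 2 alternatives: edgeR 4.0.16 called 3764 genes and DESeq2 1.42.0 called 3641, against 3770 by the main test. Totals ran from 18029707 to 67939274 reads. PCR reads are not independent molecules, so floors and exact 95% intervals cover counting error only.

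Genes were kept at a value of 10 or more in 2 or more of the 11 LLC libraries, and limma 3.58.1 (trend, R 4.3.3, two-sided) was fitted to log2(value + 1) with all 4 groups sharing 1 estimate of the spread. Adjusted p-values are Benjamini-Hochberg over all tested genes, and every adjusted p in the text comes from this test unless another is named. A gene was called at an adjusted p below 0.05 and a log2 fold change of at least 1 in size. The test was checked on simulated data. Log2 fold changes are given ± standard error. Named genes are the 12 largest changes each way among called genes without overlap and a higher group mean of 100 or more, up to 4 called members of each list, and C3 and Lcn2. A gene that this rule names is not reported here. The 38 lists hold 29 functional sets and 9 marker sets, and were described by counts and medians. The comparison and the lists were chosen with earlier results of these data known. Alternatives were other pseudocounts, filters, scalings, tools, thinned reads, left-out libraries and a replicate block, and, added after seeing the data, a correction for transcript length using GENCODE 29 lengths of human genes with the same symbol or synonym (84.7% of tested genes matched). Near-identical gene copies may share reads. No sequences are shown.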

Additional observations from a re-analysis of the deposited data

How the results depend on the processing

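The counts of genes called stayed within 1.5 times the main values under every alternative run, and no called gene was called in the opposite direction. Across scalings, filters, pseudocounts and tools the numbers ran from 1155 to 1921 higher and from 1903 to 2727 lower. Leaving out 1 library gave 1029 to 1487 higher, 1887 to 2470 lower, and 2916 to 3944 in all. Of the 134 named genes, 123 were called in every alternative run for them, and 34 of 2247 pairs of a gene and a setting lost the call, led by Cx3cr1 (11 settings), Xist (7), Steap4 (4) and Grhl1 (3). The cause of these losses was not tested. DESeq2 gave no adjusted p for Cryab.

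BrM and Int share replicate numbers 1 and 2 in the labels. Deviations from the group means correlated at 0.11 and 0.13 for libraries with the same number, over only 2 pairs. For libraries with different numbers they correlated at -0.11 and -0.13. With only 2 Int libraries these values must mirror each other, so the numbers are not shown to pair the samples. With a replicate block in the fit, 3867 genes were called, 1449 higher and 2418 lower.

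Depth limits low genes: BrM libraries held fewer reads than either Int library. Thinning all libraries to 18029707 reads gave 1330 higher and 2287 lower.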

Other observations

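Gene families that are not lists of their own were counted after their values were seen, so the counts describe these libraries and carry no test. Some of their members were given above, among them Hist1h2ae, Hist1h3c, Hist1h4d, Psmb8, Psmb10 and Tuba8. Of 51 tested histone genes, 36 were called higher in BrM and 0 lower, with a median log2 fold change of 1.83, beside the 10.1% of all tested genes called higher. Subunits of oxidative phosphorylation had 23 of 77 higher and 1 lower (median 0.82), proteasome subunits 14 of 38 higher and 2 lower (median 0.69), and small nucleolar RNA genes 23 of 71 higher and 1 lower (median 0.87). Tubulin genes had 7 of 20 higher and 1 lower (median 0.76). Cytosolic ribosomal proteins had 9 of 80 higher and 2 lower, with a median of 0.07. Many of these are short genes, and the shortest 20% of genes had a median of 0.13, against -0.41 for the longest 20%. The part of length in these counts was not tested.

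Clustered protocadherins, adhesion molecules whose isoforms give neurons their identity, were lower: 8 of 10 beta genes were called lower and 0 higher (median -1.54), and 9 of 19 gamma genes were lower and 2 higher (median -1.31). Gamma isoforms share their last exons, so reads there cannot be assigned to 1 isoform.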
